A study of Mus musculus with 6 samples.

Results

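The genes that copy DNA and supply its nucleotides were examined in the cortex of C57BL/6 mouse embryos at embryonic day 12.5. The set is 50 symbols chosen by function, from origin licensing to chromatin assembly behind the fork, and 40 of them have a row in a table of 12041 symbols. Fen1, Lig1, Mcm5, Orc1, Orc2, Orc6, Pold3, Rfc4, Rpa1 and Slbp were not analysed here. Expression was compared between 3 wild-type libraries (WT, columns HC-1, HC-8, HC-10) and 3 libraries of a conditional knockout of both Hdac1 and Hdac2 (cKO, columns HM-5, HM-13, HM-16). These genes encode histone deacetylases. Values per library are listed below in this order. Strain, age and tissue are the same in both groups, and the Cre driver and the deleted exons are not given. It is not stated that each library is a separate embryo, and the p-values then reflect only the spread among these libraries, part of which may be technical. Xist read 155 FPKM in HC-8, against 0.09 in HC-1 and 0.05 in HC-10. In cKO it read 105 FPKM in HM-16, against 0.01 in HM-5 and 0.08 in HM-13. The libraries of a group are therefore not all repeats of a single embryo. The labels name cortex, and the cortical transcription factor genes Emx2 (142 to 273 FPKM) and Tbr1 (72.1 to 114 FPKM) were present in each library.

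Replication begins when the origin recognition complex, with Cdc6 and Cdt1, loads the MCM helicase onto DNA, a step that geminin blocks once S phase has begun. Cdc45 and the GINS complex activate the helicase, primase and DNA polymerase alpha lay down primers, and the clamp loader RFC places the sliding clamp PCNA, which holds polymerases delta and epsilon on the template. Ribonucleotide reductase, thymidylate synthase and related enzymes provide the deoxynucleotides. In the embryonic cortex these genes are active in dividing radial glia and intermediate progenitors, and many of them are textbook targets of E2F transcription factors.

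Levels are given in FPKM, which scales fragments to transcript length and sequencing depth, and between 9712556 and 11922665 reads per library were recovered from the table. HM-13 had 29.7% of its reads in the ribosomal RNA row Rn45s (0.506% to 2.48% elsewhere), and Xist was high in HC-8 and HM-16. Hdac1 stood at 25.6% and Hdac2 at 23.6% of the WT mean in cKO. Symbols with at least 1 FPKM in at least 3 libraries were tested with limma on log2(FPKM + 1), and a Benjamini-Hochberg adjusted p under 0.05 over all 9359 symbols tested was called. Of the 40 genes with a row, 35 were tested, and 0 of them passed the minimum through libraries of 1 group alone. The untested 5 (Cdc6, Gmnn, Cdc45, Pold1 and Tyms) had mean levels of 0.236 to 0.887 FPKM, from 3 to 30 reads per library.

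Each symbol is represented by 1 row, and so by 1 transcript model, which is not always the one that encodes the protein. In GENCODE M21, 32 of the 40 rows are protein-coding transcripts. The rows of Orc3 and Orc4 are processed transcripts, those of Mcm10 and Pold1 retain introns, those of Cdc6 and Tyms are subject to nonsense-mediated decay, and those of Rfc1 and Dut have no transcript in that annotation. The mean levels of these 8 rows were 0.236 to 7.65 FPKM, and they describe those transcripts, not the whole gene. Exons of Mcm7 overlap Ap4m1 and Cops6 on the opposite strand and Mir25 and Mir93 on its own. Exons of Rfc5 overlap Wsb2 on the opposite strand, those of Orc5 overlap Gm15421 on the same strand, and Pcna has 2 annotated processed pseudogenes. Whether counting used strand is not given, so reads of these pairs could not be told apart.

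E2F-site letters were more frequent in the promoters of these genes than in promoters at large. RefSeq windows (GRCm38.p6, 250 bases before to 50 after the start site) were found for 32 of the 40 genes and searched on both strands for TTTCCCGC, TTTCGCGC, TTTGGCGC and TTTGCCGC. A match was present for 11 of 32 (34.4%), against 4.99% of the 6267 tested symbols with a window and 2.6% of all 27025 genes with a window. The CCAAT box, searched as CCAAT on both strands, was present for 19 of 32 (59.4%) and for 41.1% of all genes. Of the 7 genes with a window that fell in cKO, 2 had an E2F match (28.6%), and of the 21 tested but not called, 7 had one (33.3%). The 250 upstream bases are shown for Pcna (chr2:132253181-132253430, minus strand) and Rrm1 (chr7:102441445-102441694, plus strand), the pair with the largest decreases, and for a pair of helicase genes that differed in outcome. Mcm7 (chr5:138171884-138172133, minus strand) fell in cKO, and Mcm6 (chr1:128359706-128359955, minus strand) was not called. Mcm7 has 2 windows, and the one with more matches is shown. The other has 0 E2F matches and 1 CCAAT match. Capitals mark the E2F and CCAAT letters on either strand.
Pcna: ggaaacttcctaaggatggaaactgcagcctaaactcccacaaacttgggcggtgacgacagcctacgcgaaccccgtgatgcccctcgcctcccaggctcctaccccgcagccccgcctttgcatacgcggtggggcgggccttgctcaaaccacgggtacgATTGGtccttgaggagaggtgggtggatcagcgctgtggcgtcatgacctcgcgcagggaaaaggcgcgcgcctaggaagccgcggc
Rrm1: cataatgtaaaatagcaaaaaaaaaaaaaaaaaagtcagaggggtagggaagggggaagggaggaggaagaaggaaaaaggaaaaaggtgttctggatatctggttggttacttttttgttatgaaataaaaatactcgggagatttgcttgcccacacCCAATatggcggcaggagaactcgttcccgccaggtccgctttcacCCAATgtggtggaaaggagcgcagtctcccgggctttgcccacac
Mcm7: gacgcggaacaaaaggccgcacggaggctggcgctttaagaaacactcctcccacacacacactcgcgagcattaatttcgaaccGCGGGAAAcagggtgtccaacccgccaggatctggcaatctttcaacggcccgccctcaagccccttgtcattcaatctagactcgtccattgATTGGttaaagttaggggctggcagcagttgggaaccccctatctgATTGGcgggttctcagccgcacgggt
Mcm6: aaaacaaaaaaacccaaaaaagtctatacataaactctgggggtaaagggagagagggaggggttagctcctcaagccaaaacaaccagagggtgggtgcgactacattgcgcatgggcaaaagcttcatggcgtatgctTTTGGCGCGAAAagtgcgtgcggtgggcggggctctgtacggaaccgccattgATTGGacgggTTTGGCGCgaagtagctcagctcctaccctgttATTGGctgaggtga
Pcna and Rrm1 show CCAAT letters (1 and 2 matches) and no E2F letters in this stretch. Mcm7 shows 1 E2F match, 165 bases before the start site, and Mcm6 shows 3, of which the first 2 share bases, beside 2 CCAAT matches in each. A match describes letters, and binding was not measured here.

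Of the 35 genes tested, 8 fell in cKO and 0 rose. They were the sliding clamp Pcna, the large ribonucleotide reductase subunit Rrm1, the helicase subunits Mcm7, Mcm3 and Mcm2, the GINS subunit Gins1, the origin recognition subunit Orc5 and the clamp loader subunit Rfc5. They make up 22.9% of the genes tested, where 8.39% of all tested symbols fell, 9.62% rose and 18.0% changed in either direction. An unadjusted limma p under 0.05 was found for 16 of the 35 (15 lower, 1 higher), and for 34.3% of all symbols. The cKO means of the 8 were 68.3% to 86.6% of WT, so no decrease reached 2-fold. The cKO values lay below all WT values for 16 genes (45.7%), against 19.6% of all symbols, and above them for 2 genes, Orc3 and E2f1, against 19.5%. The median log2 fold change was -0.19 over the genes tested and -0.01 over all symbols. With voom on recovered reads, 8 fell and 0 rose, with Pola1 in place of Gins1, where 9.26% of all symbols fell. In the authors' deposited table, 7 of the 31 replication genes with an FDR are lower at an FDR under 0.05 (22.6%; the 8 without Gins1), against 8.75% of all rows with an FDR. In bulk RNA, fewer cells of a type and less RNA per cell cannot be told apart.

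The count of 8 moved when single libraries were left out. Leaving out HC-1 gave 3 genes, and leaving out any of HC-10, HM-5 and HM-16 gave 2 (Pcna and Rrm1). There were 8 when HC-8 was dropped, with Pold2, Rfc2 and Rpa3 in place of Mcm2, Mcm3 and Gins1. When HM-13, with its high Rn45s share, was dropped there were 6, with Rfc3 among them and without Mcm2, Mcm3 and Rfc5. Scaling to library totals gave 4 calls (Mcm7, Orc5, Pcna and Rrm1) without the Rn45s reads and 1 call (Pcna) with them. With a term for the Xist-high libraries, chosen after seeing the data, 4 were called (again Mcm7, Orc5, Pcna and Rrm1), so that Mcm2, Mcm3, Gins1 and Rfc5 lost their calls. The share of all symbols that fell, 8.39% with 6 libraries, was 2.55% without HM-5, 3.16% without HM-16 and 2.14% with totals that include Rn45s. It moved less with totals without Rn45s (7.04%) and with the Xist term (6.80%), where the count of replication genes went from 8 to 4.

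**Figure D1:**
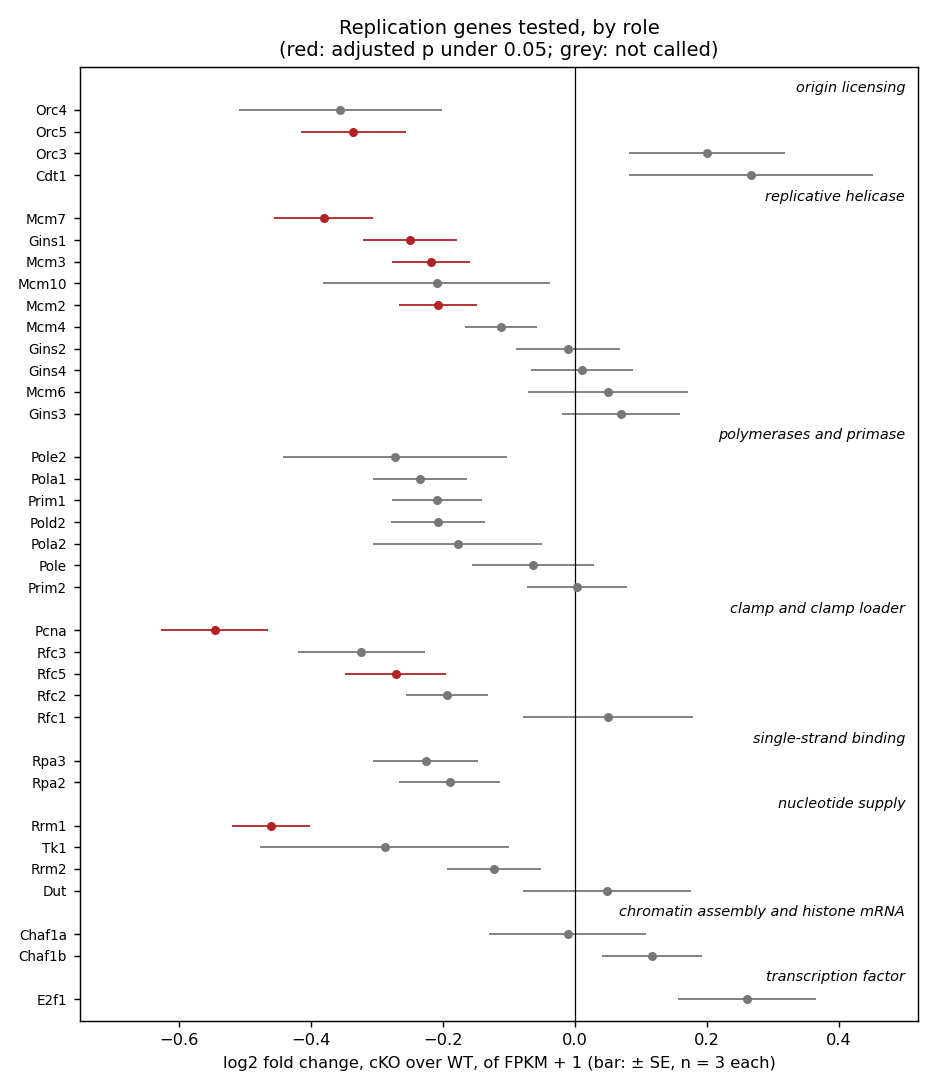
Log2 fold change (cKO over WT, of FPKM + 1) of the 35 tested replication genes by role, with bars of ± 1 standard error (3 libraries per group). Red points have an adjusted p under 0.05 over all symbols tested, and the 8 red points lie between -0.55 (Pcna) and -0.21 (Mcm2).

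The clamp showed the largest decrease among these genes. Pcna encodes the ring that tethers DNA polymerases and many repair and chromatin factors to DNA. It read 965, 811 and 932 FPKM in WT, against 599, 635 and 616 FPKM in cKO. The cKO values were close together and lay far below the lowest WT value, that of HC-8. The mean fell from 903 ± 81.0 to 617 ± 17.6 FPKM (SD, n = 3 each), 68.3% of WT (log2 fold change -0.55, SE 0.08, limma adjusted p = 0.00616). Its call held with every single library left out (highest adjusted p = 0.0352) and in the 10 other settings tried.

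The clamp loader, which opens the PCNA ring and closes it around DNA, was lower in part. Rfc5 read 67.4, 63.9 and 72.0 FPKM in WT, against 52.7, 54.7 and 60.6 FPKM in cKO, without overlap, and fell to 82.6% of WT (adjusted p = 0.0463). Its call held only without HC-8 when single libraries were left out (highest adjusted p = 0.161). Rfc3 read 34.0, 29.9 and 29.8 FPKM in WT, against 23.0, 27.9 and 23.5 FPKM in cKO (adjusted p = 0.0540). Rfc2 read 174, 161 and 177 FPKM in WT, against 144, 155 and 148 FPKM in cKO (adjusted p = 0.0661). In both the groups did not overlap, but neither was called, and the 95% intervals of their log2 fold changes were -0.55 to -0.10 and -0.34 to -0.05. Rfc1, the large subunit, was measured only in a row with a mean of 0.980 FPKM.

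Both ribonucleotide reductase subunits were abundant, and 1 of them fell. Rrm1, which carries the catalytic site, read 283, 267 and 283 FPKM in WT, against 196, 211 and 197 FPKM in cKO. The highest cKO value, in HM-13, was well below the lowest WT value. Rrm1 fell to 72.6% of WT (278 ± 9.50 to 202 ± 8.18 FPKM, n = 3 each; log2 fold change -0.46, SE 0.06, limma adjusted p = 0.00409), and the call held without any one library (highest adjusted p = 0.0277). With library totals that include Rn45s it was lost (adjusted p = 0.118). Rrm2, the radical-bearing subunit whose level varies through the cell cycle, read 400.5, 381 and 405 FPKM in WT, against 343, 354 and 395 FPKM in cKO. HM-16 reached into the WT range, and Rrm2 was not called (91.9% of WT, adjusted p = 0.265, 95% interval of the log2 fold change -0.29 to 0.04). The row of the thymidine kinase gene Tk1 was low (1.96 ± 0.459 FPKM in WT, 1.44 ± 0.552 FPKM in cKO), with overlapping groups. So was that of the dUTPase gene Dut (1.27 ± 0.212 FPKM in WT, 1.35 ± 0.230 FPKM in cKO). These rows had 12 to 38 and 16 to 26 reads per library, and the level of the whole gene need not be low. The thymidylate synthase row, Tyms, was too low to test.

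Among the helicase subunits, Mcm2, Mcm3 and Mcm7 fell. Mcm7 read 513, 442 and 503 FPKM in WT, against 358, 377 and 382 FPKM in cKO, and fell to 76.6% of WT (limma adjusted p = 0.0151; log2 fold change -0.38, SE 0.07). Mcm3 read 193, 201 and 209 FPKM in WT, against 173, 166 and 179 FPKM in cKO, 85.9% of WT (adjusted p = 0.0407). Mcm2 read 216, 213 and 227 FPKM in WT, against 188, 182 and 198 FPKM in cKO, 86.6% of WT (adjusted p = 0.0496). The groups did not overlap in these 3 genes. Mcm7 was no longer called once HC-10, HM-5 or HM-16 was dropped, with a highest adjusted p of 0.0685. Mcm3 and Mcm2 were not called in any of the 6 such fits, with adjusted p-values of up to 0.140 and 0.161. Mcm4 read 143, 138 and 148 FPKM in WT, against 131, 130.2 and 135 FPKM in cKO, a small gap that was not called (92.5% of WT, adjusted p = 0.192). Mcm6 had 4.81 ± 0.384 FPKM in WT, 5.03 ± 0.643 FPKM in cKO, far below the other subunits on this per-length scale, with overlapping groups. It was read from 1 transcript model with 164 to 267 reads per library, so neither its level nor its change need be that of the whole gene. Mcm10, a factor that helps to start the helicase, was read from a retained-intron row with a mean of 0.887 FPKM.

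GINS, the complex of Gins1, Gins2, Gins3 and Gins4 that works with Cdc45 on the helicase, had 1 subunit that fell. Gins1 read 32.3, 30.9 and 31.1 FPKM in WT, against 24.3, 27.4 and 27.1 FPKM in cKO, without overlap, and fell to 83.7% of WT (adjusted p = 0.0492). The call held only without HM-13 when single libraries were left out (highest adjusted p = 0.169) and was lost with voom (adjusted p = 0.0804). Gins2 (88.6 ± 8.45 FPKM in WT, 87.7 ± 2.53 FPKM in cKO), Gins3 (25.4 ± 2.08 FPKM in WT, 26.7 ± 2.02 FPKM in cKO) and Gins4 (81.1 ± 7.84 FPKM in WT, 81.4 ± 0.798 FPKM in cKO) overlapped between groups. The 95% intervals of their log2 fold changes were -0.19 to 0.17, -0.14 to 0.28 and -0.17 to 0.19, and the sign of each depended on the scaling between libraries.

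**Figure D2:**
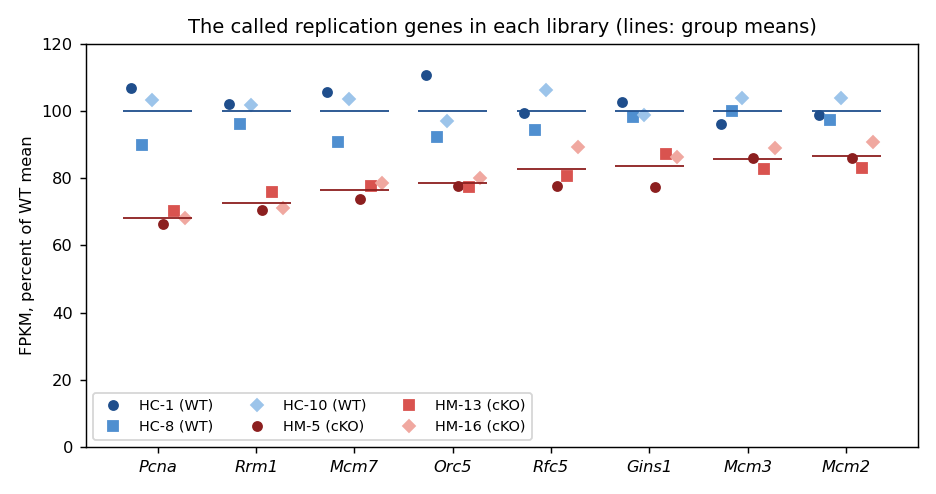
FPKM of the 8 called genes in each library as a percentage of the WT mean of that gene, with lines at the group means. All cKO points lie below all WT points in each gene, and the cKO means run from 68.3% (Pcna) to 86.6% (Mcm2).

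Of the licensing genes, Orc5 fell. This subunit of the origin recognition complex read 42.4, 35.4 and 37.2 FPKM in WT, against 29.8, 29.7 and 30.7 FPKM in cKO. The cKO libraries were nearly equal and all below the WT range (38.3 ± 3.67 to 30.1 ± 0.555 FPKM, n = 3 each; 78.5% of WT, log2 fold change -0.34, SE 0.08, limma adjusted p = 0.0271). The call was lost on dropping HC-1, HC-10, HM-5 or HM-16, with an adjusted p of up to 0.0983. The processed-transcript rows of Orc3 (7.03 ± 0.0906 FPKM in WT, 8.28 ± 1.27 FPKM in cKO) and Orc4 (5.60 ± 0.983 FPKM in WT, 4.15 ± 0.710 FPKM in cKO) were not called. Cdt1, the loading factor for MCM, read 2.43, 1.25 and 1.19 FPKM in WT, against 2.06, 2.26 and 1.95 FPKM in cKO. HC-1 alone was above the cKO libraries, and Cdt1 was not called (adjusted p = 0.352).

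None of the 7 tested polymerase and primase genes was called with limma, and voom called 1, Pola1 (adjusted p = 0.0354). An unadjusted limma p under 0.05 was found for 3 (42.9%, against 34.3% of all symbols). Those 3 did not overlap between groups. Prim1, the catalytic primase subunit, read 148, 136 and 149 FPKM in WT, against 118, 124 and 133 FPKM in cKO (86.4% of WT, adjusted p = 0.0706). Pola1, the catalytic subunit of polymerase alpha, read 19.1, 18.8 and 18.6 FPKM in WT, against 15.6, 15.3 and 16.7 FPKM in cKO (84.2%, adjusted p = 0.0596). Pold2, an accessory subunit of polymerase delta, read 86.0, 75.1 and 86.5 FPKM in WT, against 69.4, 72.6 and 71.6 FPKM in cKO (86.3%, adjusted p = 0.0814). Prim2, the other primase subunit, had 45.8 ± 3.29 FPKM in WT, 45.8 ± 2.43 FPKM in cKO, with a 95% interval of the log2 fold change of -0.17 to 0.18. Pole, the catalytic subunit of polymerase epsilon, had 14.6 ± 0.595 FPKM in WT, 14.0 ± 1.37 FPKM in cKO, with overlapping groups, as did Pole2 and Pola2.

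The single-strand binding subunits were both below WT in each cKO library. Rpa2 read 96.0, 83.6 and 85.7 FPKM in WT, against 76.1, 73.4 and 82.7 FPKM in cKO (adjusted p = 0.124). Rpa3 read 165, 137 and 155 FPKM in WT, against 125, 135 and 128 FPKM in cKO (adjusted p = 0.0877). Neither was called with limma or voom, and both had an unadjusted limma p under 0.05. Chaf1a (21.7 ± 2.16 FPKM in WT, 21.5 ± 2.93 FPKM in cKO) and Chaf1b, subunits of the chromatin assembly factor that deposits histones behind the fork, were not called. Chaf1b read 42.4, 40.6 and 45.8 FPKM in WT, against 47.7, 43.2 and 49.1 FPKM in cKO, with overlapping groups. E2f1, a transcription factor that activates replication genes, read 5.65, 6.88 and 6.72 FPKM in WT, against 7.78, 8.18 and 7.62 FPKM in cKO. All of its cKO values were above the WT values, opposite to Pcna and Rrm1, but it was not called (log2 fold change 0.26, SE 0.10, adjusted p = 0.124), nor was it in any other setting tried.

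Called decreases and log2 fold changes below 0 were more frequent at high expression, among these genes and among all symbols. Level was read from the 1 row kept per symbol. Of the 10 with a mean of at least 100 FPKM, all 10 had a log2 fold change below 0, and 5 fell. Of the 14 between 10 and 100 FPKM, 10 were below 0 and 3 fell. Of the 11 under 10 FPKM, 5 were below 0 and 0 fell with limma or voom (1 had an unadjusted limma p under 0.05, E2f1, with higher values in cKO). Among these 11, the rows of Orc3, Orc4, Mcm10, Rfc1 and Dut do not describe the whole gene, so their level need not be that of the gene. By mean FPKM, Mcm10 (73.1% of WT), Tk1 (73.7%), Orc4 (74.2%), Pole2 (78.9%) and Pola2 (87.7%) were lower in cKO, with overlapping groups. The others of the 11 stood at 105% to 129% of WT. Adding 1 to FPKM shrinks the log2 fold changes of low rows, and some had few reads (Tk1 12 to 38 per library). The lack of calls here need not mean a lack of change. Over all symbols with at least 100 FPKM, 24.7% of 778 fell, 74.8% were below 0, and the median log2 fold change was -0.15, against -0.21 for the replication genes at that level. Between 10 and 100 FPKM, 11.1% of 3691 symbols fell, with a median of -0.02 against -0.13. By medians, the replication genes differed less from symbols of like level in each of these ranges than over all levels. The share that fell was 5 of 10 against 24.7% at 100 FPKM and above, and 3 of 14 against 11.1% between 10 and 100 FPKM. Under 10 FPKM it was 0 of 11 against 3.72%, and over all levels 22.9% against 8.39%.

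**Figure D3:**
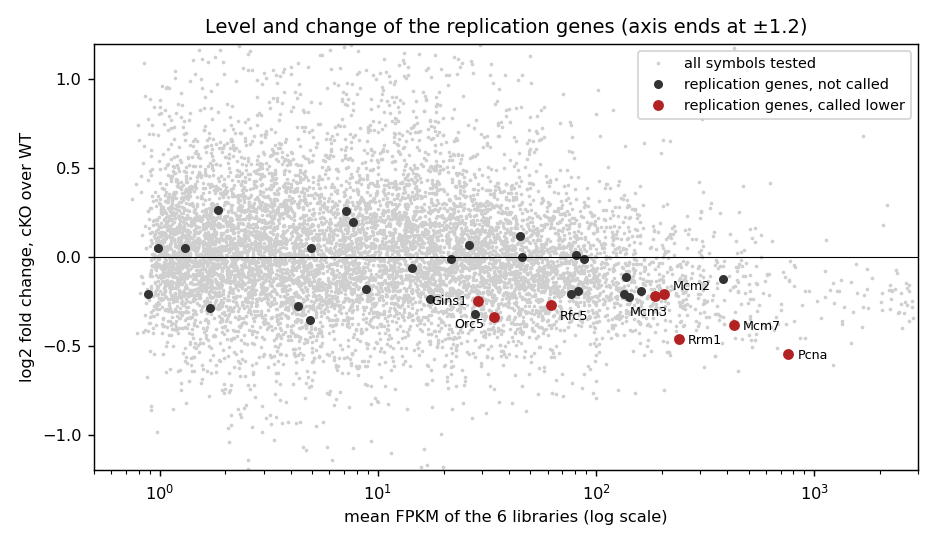
Mean FPKM over the 6 libraries (log scale) against the log2 fold change of cKO over WT, for all symbols tested (grey), replication genes not called (black) and replication genes that fell (red); symbols outside the axes are not drawn. At 100 FPKM and above, 74.8% of all symbols lie below 0, and so do all 10 replication genes.

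Ratios between subunits of a complex do not depend on the scaling between libraries. Over 28 pairs of tested subunits in 10 complexes, chosen after the levels were seen, the groups did not overlap for 11 pairs (39.3%), 7 with the ratio lower and 4 with it higher in cKO. The same held for 36.8% of all pairs of the 9349 tested symbols with a value above 0 in each library, so the share among subunits is near the background and is no result about them. With 3 against 3 libraries, an exact two-sided permutation test cannot go below p = 0.1, and the smallest value after adjustment over the 28 pairs was 0.255. The Rrm1 to Rrm2 ratio was 0.707, 0.700 and 0.698 in WT, against 0.573, 0.597 and 0.4999 in cKO. The groups did not overlap. The Prim1 to Prim2 ratio was 3.16 ± 0.0732 in WT, 2.72 ± 0.134 in cKO, without overlap. The Gins1 to Gins2 ratio was 0.357 ± 0.0319 in WT, 0.300 ± 0.0171 in cKO, also without overlap, as were Gins1 to Gins3 and Gins1 to Gins4. Mcm2 to Mcm4 (1.53 ± 0.0188 in WT, 1.43 ± 0.0342 in cKO) and Mcm3 to Mcm4 (1.41 ± 0.0535 in WT, 1.30 ± 0.0256 in cKO) were lower without overlap too. Ratios higher in cKO without overlap were Mcm4 to Mcm7 (0.295 ± 0.0168 in WT, 0.355 ± 0.0106 in cKO), Mcm6 to Mcm7, Orc3 to Orc4 and Orc3 to Orc5. The Mcm2 to Mcm3 ratio was 1.09 ± 0.0284 in WT, 1.10 ± 0.0100 in cKO, with overlapping groups.

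**Figure D4:**
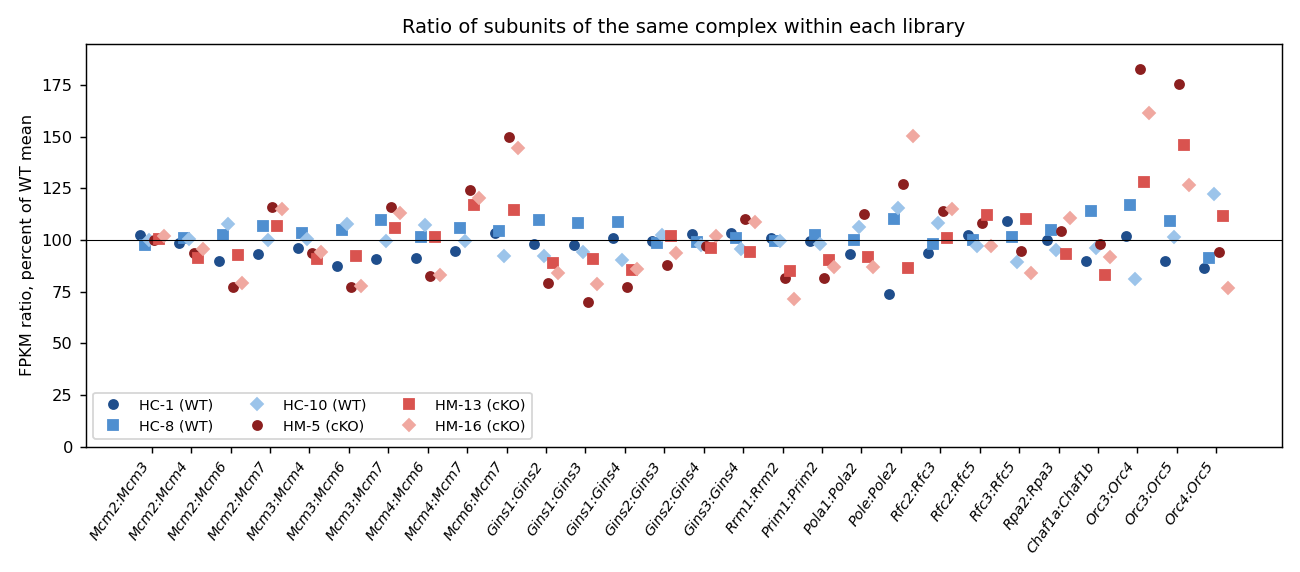
Ratio of FPKM between subunits of a complex in each library, as a percentage of the WT mean ratio, for all 28 pairs. Rrm1:Rrm2, Prim1:Prim2, Mcm2:Mcm4, Mcm3:Mcm4 and the 3 pairs of Gins1 lie below the WT points in all 3 cKO libraries. The pairs Mcm4:Mcm7, Mcm6:Mcm7, Orc3:Orc4 and Orc3:Orc5 lie above them, and Mcm2:Mcm3 stays near 100 in all 6.

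Of 22 tested replication factors beyond the 50 symbols, 6 fell (27.3%) and 1 rose, where 8.39% of all symbols fell and 9.62% rose. Among the 22, 10 had an unadjusted limma p under 0.05 (45.5%, 9 lower and 1 higher), against 34.3% of all symbols. The histone chaperone gene Asf1a fell from 46.1 ± 2.76 to 32.7 ± 0.955 FPKM (n = 3 each), or 71.0% of the WT mean (limma adjusted p = 0.00507). The topoisomerase gene Top1 fell to 76.3%, the FACT subunit gene Supt16 to 81.4% and the nuclease-helicase gene Dna2 to 63.7%. The gene that rose, named after its value was seen, was Asf1b, a paralogue of Asf1a, from 50.7 ± 5.55 to 68.2 ± 7.07 FPKM (1.35-fold, adjusted p = 0.0291). With single libraries left out, Asf1a, Top1 and Supt16 were called in all 6 fits, Dna2 in 4 and Asf1b in 2. Of 20 other nucleotide synthesis genes, 2 fell and 0 rose (limma and voom), and 4 had an unadjusted limma p under 0.05, all lower. The share that fell, 10%, is near that of all symbols, and the share with such a p, 20%, is below the 34.3% of all symbols, so neither is a result about the list. These 2 were the GMP synthetase gene Gmps (78.3 ± 1.13 to 58.7 ± 2.42 FPKM, adjusted p = 0.00499) and the thymidylate kinase gene Dtymk (67.2 ± 2.83 to 50.4 ± 2.18 FPKM, adjusted p = 0.00694), both called in all 6 fits. With library totals that include Rn45s, none of these 7 named genes was called by limma.

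Of 14 genes of E2F, RB and cyclin E control, 2 were called higher and 2 lower (14.3% each, against 9.62% and 8.39% of all symbols). Among the 14, 9 had an unadjusted limma p under 0.05 (64.3%, 5 higher and 4 lower), against 34.3% of all symbols. Rb1, which encodes the retinoblastoma protein that restrains E2F, rose from 33.0 ± 0.840 to 44.3 ± 2.90 FPKM (1.34-fold, adjusted p = 0.00866; n = 3 each). Its relative Rbl1 fell to 80.8% of WT (adjusted p = 0.0353), a call lost whichever library was left out (highest adjusted p = 0.109). The other gene called higher, E2f8, a repressor of E2F targets, had 0.659 ± 0.211 FPKM in WT, 1.53 ± 0.308 FPKM in cKO. It passed the minimum of 1 FPKM through the 3 cKO libraries alone, so its call is given as a description only. E2f5 fell to 84.4% (adjusted p = 0.0234), a call made in 2 of the 6 fits that drop a library, with an adjusted p of up to 0.0860, and Rb1 was called in all 6. With library totals that include Rn45s, Rb1 (limma adjusted p = 0.564), Rbl1, E2f5 and E2f8 all lost their calls. Of 13 genes of G2 and mitosis, 1 fell with limma and 3 with voom, and 6 had an unadjusted limma p under 0.05, all lower. The share that fell with limma, 7.69%, is near that of all symbols, and the share with such a p was 46.2%, against 34.3%. The mitotic motor gene Kif11 fell to 87.6% of WT (adjusted p = 0.0482), a call lost in each of the 6 fits.

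Cell type markers were read beside these genes. Over all symbols tested, limma called 8.39% lower and 9.62% higher, and voom called 9.26% lower. An unadjusted limma p under 0.05 was found for 34.3%. Of 9 tested neuron genes, 0 were called with limma and 2 fell with voom. Such a p was found for 4 (44.4%), and all 9 had log2 fold changes below 0, with a median of -0.36. Summed over the 10 neuron genes with a row, levels were 1175 to 1543 FPKM in WT and 841 to 1251 FPKM in cKO. HM-13, at 1251 FPKM, lay within the WT range of this sum. Of 9 radial glia genes, 2 rose (22.2%, Emx2 and Sox3) and 1 fell (11.1%), and 7 had log2 fold changes above 0 (median 0.27). Among the same 9, 8 had an unadjusted limma p under 0.05 (88.9%), 7 of them higher. Their sums over 13 genes were 3422 to 3686 FPKM in WT and 3148 to 3394 FPKM in cKO, and include Fabp7, the gene that fell (825 ± 123 to 311 ± 103 FPKM). Of 7 intermediate progenitor genes, 1 fell (14.3%, Btg2; sums 342 to 429 and 263 to 359 FPKM), and 2 had such a p (28.6%), both lower. Of 6 microglia genes, 2 rose (33.3%, Tyrobp and C1qb; sums 42.6 to 52.0 and 60.0 to 66.2 FPKM), and 4 had such a p (66.7%), all higher. Among 6 erythroid, 4 endothelial and 8 meningeal genes, limma and voom each called 0, and 0 had an unadjusted limma p under 0.05. Sums for the erythroid genes were 14409 to 19396 FPKM in WT and 16433 to 24240.3 FPKM in cKO. Of the 54 markers with a row, 0 were at 0 in any library. The part of cell composition in the decreases of replication genes was not tested.

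**Figure D5:**
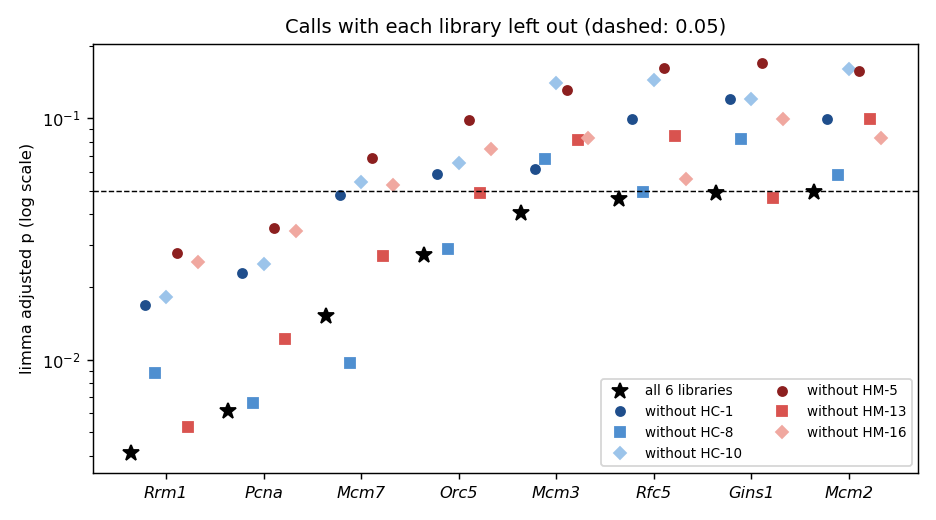
Adjusted p (log scale) of the 8 called genes with all 6 libraries (stars) and with each library left out, against the threshold of 0.05 (dashed). All points of Rrm1 and Pcna lie below the line, while the points of Mcm3 and Mcm2 with a library left out all lie above it.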

How the data were processed

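RNA of 6 libraries of embryonic cortex was sequenced after TruSeq library preparation, per the labels' protocols. The submitters' processing notes name STAR 2.5.4b and bcl2fastq 1.8.4, featureCounts 1.6.1, DESeq2 1.22.1, R 3.4.1 and mm10. No source used here names the annotation, the strand setting or a row filter. The deposited table gives FPKM per library, per the file headers, and the authors' mean normalized count (a signal scaled by size factors), log2 fold change, p-value and FDR. HC was read as WT and HM as cKO from the letters; the columns carry no replicate numbers of the labels.

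Reads were recovered by rescaling FPKM to the mean normalized count and dividing by a step fitted per library (100% of values whole within 0.001 of a read). A symbol was represented by its row of highest mean normalized count. limma 3.58.1 in R 4.3.3 was run with an intensity trend on log2(FPKM + 1), group as the only term, and p-values adjusted over all symbols. Fold changes on this scale understate low genes; ratios of mean FPKM carry no pseudocount. The design foresaw a count test for deposited counts only, so voom on recovered reads was the count-based alternative. Fits with a library left out kept the same symbols. The fit was also run on simulated counts with the same spread for all genes and without the Rn45s difference of HM-13. That run checks the code and does not show how the fit performs on these libraries. By rule every replication gene was named, with library values for those called and the most abundant of each role, and up to 4 called genes of each other list. Genes, lists and tests were chosen with earlier results of these data known.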

Additional observations from a re-analysis of the deposited data

How the results depend on the processing

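No paired analysis was possible because the columns carry no replicate numbers of the labels. The 8 genes that fell kept the sign of their log2 fold change in all 16 settings tried, and 52 of their 128 values in those settings were not called; of 425 values of the other tested replication genes, 10 were called. The count of 8 was 5 with no filter on low values, 1 with library totals that include Rn45s, 4 with totals without Rn45s and 4 with a term for the Xist-high libraries, a setting chosen after seeing the data (Mcm2, Mcm3, Gins1 and Rfc5 lost). With 1 library left out it ran from 2 to 8. The median log2 fold change of the replication genes, -0.19, was -0.12 with a pseudocount of 5, -0.29 with totals that include Rn45s, -0.13 after quantile normalization and -0.22 to -0.13 with 1 library left out. The count of 1685 changed symbols was 516 with totals that include Rn45s and 595 to 1869 with 1 library left out. The cause was not tested.

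Signs that differed were all of genes not called. With totals that include Rn45s the log2 fold change was -0.023 for Mcm6, -0.023 for Gins3, -0.086 for Gins4 and -0.092 for Prim2. With totals without Rn45s it was 0.048 for Gins2 and 0.045 for Chaf1a, and after quantile normalization 0.067 for Gins2, -5.1e-05 for Rfc1, 0.041 for Rrm2 and -0.0024 for Dut. With 1 library left out it ran from -0.0041 to 0.14 for Mcm6, from -0.091 to 0.038 for Gins2, from -0.065 to 0.073 for Gins4, from -0.057 to 0.038 for Prim2, from -0.034 to 0.12 for Rfc1, from -0.031 to 0.12 for Dut and from -0.090 to 0.10 for Chaf1a. Rows of few reads limit what can be seen for Cdc6, Cdc45, Gmnn, Pold1 and Tyms.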
